A study of Caenorhabditis elegans with 2 samples.

Results

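The reproducible weak peaks of LSY-2 are listed regions that were found in both biological replicates. They ranked below the list that passed the study's test of reproducibility. The list they come from holds background as well as binding, so a region of the set need not be a bound site. The regions were chosen from the pooled peak list of 30000 regions, ordered by signal. A region was taken if it ranked after 5944 and no lower than 15000, overlapped by at least 1 bp a peak among the 15000 strongest of each replicate, and overlapped none of the 5944 thresholded peaks. The thresholded peaks were ranks 1 to 5944 of the same pooled list. Of the 9056 ranks in the range, 456 overlapped a thresholded peak and 8600 did not. Of those 8600, 4139 (48.1%) were in both replicates and form the set described here. A further 2285 were in replicate 1 only, 1610 in replicate 2 only and 566 in neither, and these 4461 are called non-reproduced peaks below. With overlap in replicate 1 alone required, 6424 peaks met the rule, and with replicate 2 alone 5749. Signal and rank chose the peaks, so both are given as a description, with no test.

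The study mapped DNA bound by LSY-2 with chromatin immunoprecipitation and sequencing (ChIP-seq) in Caenorhabditis elegans. All samples form 1 group of 2 biological replicates, so there was no treated or mutant group to compare. Both came from strain OP367, genotype unc-119(tm4063) III; wgIs367, in which an integrated transgene makes LSY-2 with GFP and FLAG joined to its C-terminus. The animals were L4 larvae of mixed sex, taken whole and fragmented by sonication, and the promoter driving the fusion is not stated in the sources used. Signal from whole larvae cannot tell weak binding in many cells from strong binding in few.

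LSY-2 is a nuclear zinc finger protein. It was named from a screen for the left and right identities of the ASE taste neurons, where it acts with other regulators to set asymmetric expression of the microRNA lsy-6. Zinc finger factors contact short DNA words. In ChIP-seq the base where reads pile up highest, the summit, lies close to the contacted DNA when binding is direct. The irreproducible discovery rate (IDR) method compares the order of peaks in replicates and keeps those whose order is shared. Its input is made long on purpose, so that it holds both binding and background.

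The sequences below are the 100 bases at the summit of the strongest promoter peaks of the set, that held AGACGCAG or GAGAGA. Both words were found in earlier work on the thresholded peaks of these data. All are from the plus strand of the RefSeq genome of build ce11 (WBcel235), 5′ to 3′. Capitals mark AGACGCAG, or its reverse complement, in the first 3 sequences. They belong to men-1, a malic enzyme gene (chrII:14234078-14234177), the nuclear hormone receptor gene nhr-66 (chrIV:8229597-8229696) and lin-42, the worm relative of the clock gene Period (chrII:1237909-1238008).
men-1: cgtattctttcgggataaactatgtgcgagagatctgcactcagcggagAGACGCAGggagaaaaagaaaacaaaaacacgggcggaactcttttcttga
nhr-66: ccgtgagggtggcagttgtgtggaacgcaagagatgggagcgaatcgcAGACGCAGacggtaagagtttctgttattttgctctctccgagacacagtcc
lin-42: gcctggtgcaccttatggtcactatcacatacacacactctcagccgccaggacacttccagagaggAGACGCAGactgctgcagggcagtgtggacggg

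In the next 3 sequences capitals mark GAGAGA or its reverse complement TCTCTC. The first lies between the collagen genes col-159 and col-160 (chrV:13202271-13202370). The others lie upstream of ape-1 (chrV:11680899-11680998), the worm relative of the p53-binding iASPP genes, and of anmt-3 (chrV:9958823-9958922).
col-159 and col-160: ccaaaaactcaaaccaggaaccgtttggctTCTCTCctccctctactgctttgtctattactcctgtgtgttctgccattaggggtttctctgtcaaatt
ape-1: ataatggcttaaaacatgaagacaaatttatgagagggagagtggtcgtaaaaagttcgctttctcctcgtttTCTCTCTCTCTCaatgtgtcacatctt
anmt-3: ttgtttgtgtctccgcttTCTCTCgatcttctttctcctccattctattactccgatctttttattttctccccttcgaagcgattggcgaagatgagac

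The last sequence is the summit of the peak upstream of lsy-12 (chrV:9857136-9857235), a histone acetyltransferase gene and the only one of 24 ASE asymmetry genes with a reproducible weak peak. It held neither word and so has no capitals.
lsy-12: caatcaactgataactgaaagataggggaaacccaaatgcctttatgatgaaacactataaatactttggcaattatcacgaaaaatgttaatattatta

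The signal of these peaks was low and narrow in range. Signal here is the value in the deposited peak lists, of unstated scale, and the depth of the libraries is unknown. Pooled signal ran from 24.5 to 59.9 with a median of 42.2, against a median of 114.8 for thresholded peaks and 30.6 for non-reproduced peaks. The peak of rank 5944, the last thresholded one, had a pooled signal of 59.877473, and the first reproducible weak peak had 59.875727. At the other end the last reproducible weak peak, rank 14998, had 24.544304 and the peak just beyond rank 15000 had 24.54345. In replicate 1 the peak at rank 15000 had 16.25238 and the next 16.251355, and in replicate 2 these values were 12.941029 and 12.940731. No gap in signal therefore stood at any edge of the rule. Of the 4139 peaks, 4080 (98.6%) were exactly 360 bp wide.

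Signal in the 2 replicates was nearly unrelated across these peaks. For the strongest overlapping peak in each replicate, signal was 16.3 to 113.2 in replicate 1 (median 25.9) and 12.9 to 84.3 in replicate 2 (median 19.7). Signal was higher in replicate 1 at 3095 peaks (74.8%), with a median log2 ratio of replicate 1 to replicate 2 of 0.38 ± 0.55 (SD over peaks). Across the 4139 peaks the replicates had a Spearman's rho of 0.0445 and a Pearson's r, on log2 signal, of 0.0578. The same values over the 5862 thresholded peaks found in both replicates were 0.808 and 0.896. The rule limits signal on both sides in the weak set, so a low correlation is partly built in, and overlap in both replicates was itself required. The replicate summits lay a median of 81 bp apart and within 100 bp of each other at 2387 peaks (57.7%), against 24 bp and 90.4% for thresholded peaks.

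Signals differed by more than 2-fold between the replicates at 582 of the peaks (14.1%), against 975 (16.6%) of the thresholded peaks. The rule sets a lowest replicate signal for the weak peaks and none for the thresholded ones. These shares therefore do not compare how well the replicates agreed. Of the reproducible weak peaks, 3333 (80.5%) were outside the 5944 strongest peaks of both replicates. Another 762 (18.4%) were among the 5944 strongest in 1 replicate only, and 44 in both. A replicate peak can cover a weak pooled peak and a neighbouring thresholded one at once, and 30 reproducible weak peaks rested on such a replicate peak in at least 1 replicate, 13 of the 44 among them. The deposited q-value of the pooled list had a ceiling of 4.20 on the −log10 scale. Every thresholded peak sat at that ceiling, as did 1613 (39.0%) of the reproducible weak peaks and 6.81% of the non-reproduced peaks. The weak and non-reproduced sets differ in pooled rank, with reproducible peaks making up 84.0% of their ranks down to 8000. The shares at the ceiling were not compared at equal rank. They are therefore a description, and a difference in q-value apart from rank was not tested.

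**Figure D1:**
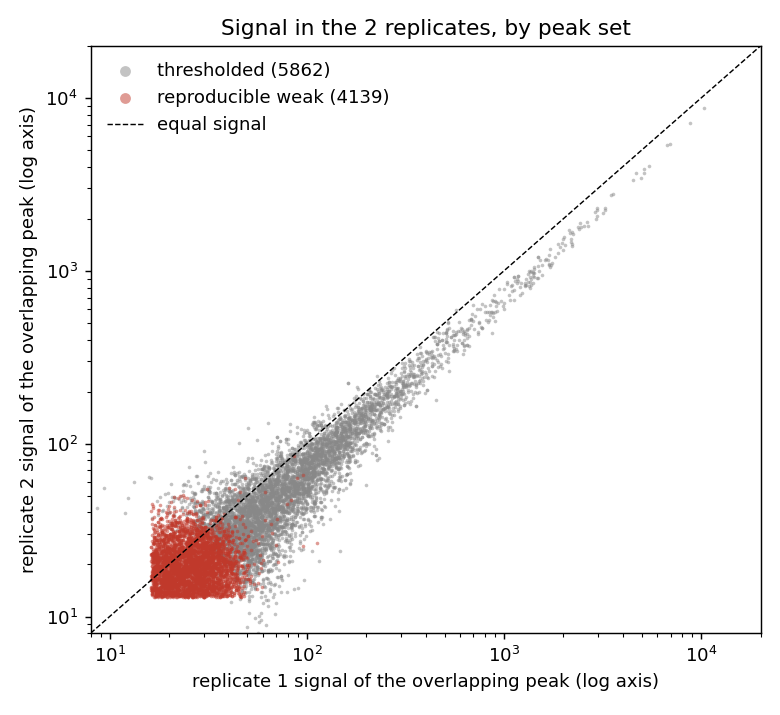
Signal of the overlapping peak in replicate 1 (horizontal axis) and replicate 2 (vertical axis), both on log axes and in the deposited signal unit; each point is 1 peak, grey for 5862 thresholded peaks and red for 4139 reproducible weak peaks, and the dashed line marks equal signal. The red points fill a block at the lower end with hardly any slope (rho 0.0445), whereas the grey points follow a line (rho 0.808) that lies below the line of equal signal.

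Compared with thresholded peaks, reproducible weak peaks lay less often at promoters and more often inside genes. Their summits were in a promoter window, from 1000 bp upstream to 200 bp downstream of an annotated protein-coding or microRNA 5′ end, in 1475 of 4139 cases (35.6%, 95% Wilson interval 34.2 to 37.1). The share was 57.0% (55.7 to 58.2) for thresholded peaks, a difference of -21.3 percentage points (Fisher's exact test, two-sided, adjusted p = 7.04e-99, Benjamini-Hochberg over 7 classes). Introns held 26.3% of the weak summits and 14.3% of the thresholded ones (Fisher's exact test, adjusted p = 1e-49). Coding exons held 6.26% against 1.16% (adjusted p = 1.46e-45) and 3′ untranslated regions 4.37% against 1.38% (adjusted p = 6.75e-20), each by Fisher's exact test. The shares between genes, 23.6% and 21.9%, did not pass Fisher's exact test (adjusted p = 0.0523), nor did those of other exons (adjusted p = 0.059) or 5′ untranslated regions (adjusted p = 0.141). Intervals and tests cover counting error over peaks only. Neighbouring peaks are not independent, and merging overlapping ones left 3832 separate intervals.

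Part of this contrast was present within the thresholded list itself. Among thresholded peaks the promoter share went from 80.8% in ranks 1 to 1000 to 41.8% in ranks 5001 to 5944. Among reproducible weak peaks it was 40.9% down to rank 7000 and 36.4% in the next 1000 ranks. Against the weakest 1000 thresholded peaks (41.8%) the weak set was still lower by Fisher's exact test (adjusted p = 0.00119). In that comparison coding exons (6.26% against 2.60%, adjusted p = 1.02e-05) and introns (26.3% against 21.9%, adjusted p = 0.00949) were higher by Fisher's exact test.

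Against non-reproduced peaks of the same rank range, reproducible weak peaks lay more often at promoters and less often in introns. The promoter shares were 35.6% and 29.7% (adjusted p = 1.28e-08, Fisher's exact test over the same classes) and the intron shares 26.3% and 32.3% (adjusted p = 1.23e-08). The other 5 classes did not pass the test. These sets differ in rank, because reproducible peaks made up 84.0% of the ranks down to 8000, 56.9% of those from there to 11000 and 23.2% of those from there to 15000. Within these bins the promoter shares of reproducible and non-reproduced peaks were 38.8% and 37.4% (adjusted p = 0.657, Fisher's exact test over 3 bins), then 35.3% and 30.7% (adjusted p = 0.0307), then 30.4% and 28.4% (adjusted p = 0.379). The difference of 5.98 percentage points over the whole range was thus 1.40 points in the strongest bin and passed the test only in the middle one. The intron shares were 24.7% and 22.6% in the first bin (adjusted p = 0.471, Fisher's exact test), in the opposite direction, then 26.9% and 30.2% (adjusted p = 0.0884), then 28.3% and 34.2% (adjusted p = 0.00321). The lower intron share thus passed the test in the last bin only.

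**Figure D2:**
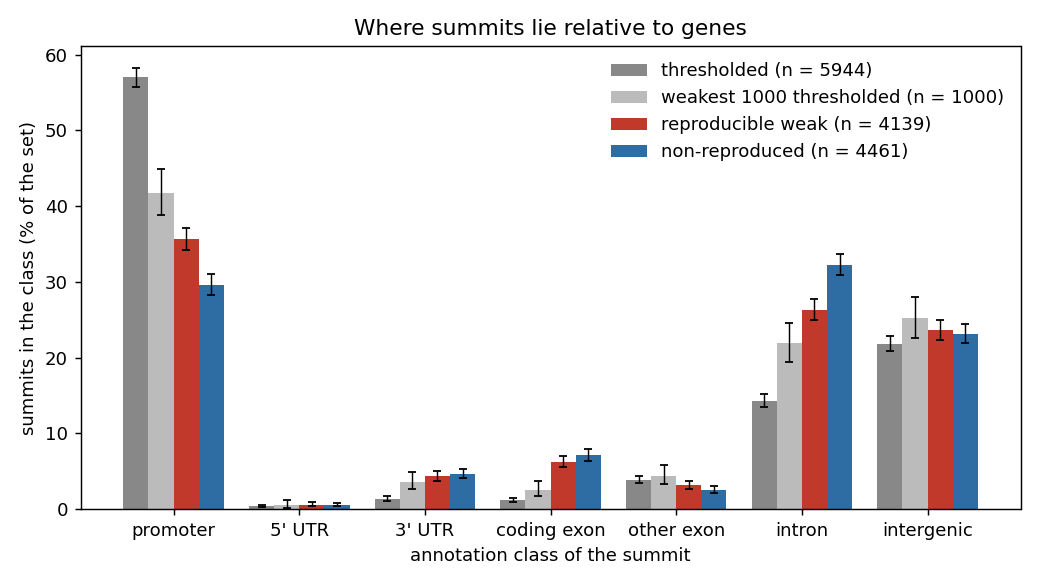
Share of summits (vertical axis, percent of each set) in 7 exclusive annotation classes (horizontal axis) for thresholded, weakest 1000 thresholded, reproducible weak and non-reproduced peaks; error bars are 95% Wilson intervals over peaks. The promoter bars step down from 57.0% to 41.8%, 35.6% and 29.7%, and the intron bars step up from 14.3% to 32.3%.

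**Figure D3:**
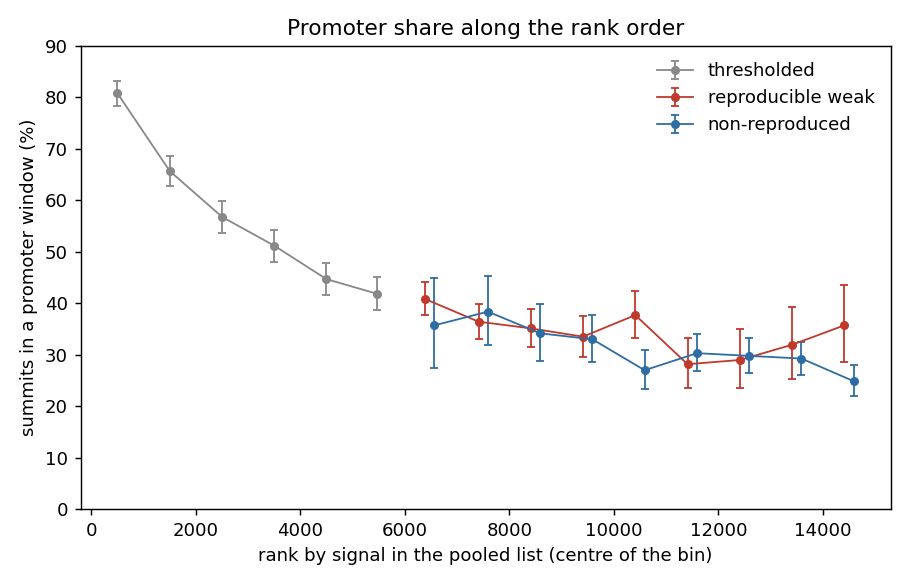
Share of summits in a promoter window (vertical axis, percent) by rank of pooled signal (horizontal axis, centre of each bin of about 1000 ranks) for thresholded, reproducible weak and non-reproduced peaks; error bars are 95% Wilson intervals over peaks, and red and blue points are shifted sideways a little to keep them apart. The red line continues from the end of the grey one, at 41.8% and then 40.9%.

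The median distance from a reproducible weak summit to the nearest annotated 5′ end was 1064 bp, against 531 bp for thresholded and 1213 bp for non-reproduced peaks. A distance above 2000 bp was seen for 1203 weak summits (29.1%). Of the 1475 promoter summits, 160 (10.8%) lay in the windows of 2 or more genes at once, against 27.7% of thresholded promoter summits and 10.3% of the weakest 1000 of them. The median distance from a weak summit to the nearest thresholded one was 2416 bp, and 738 (17.8%) were within 1000 bp of one. For non-reproduced summits these values were 2772 bp and 15.8%. The rule removed peaks that overlap a thresholded peak from both sets, so the shortest distances, 200 and 201 bp, are set by it.

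The strongest 20 peaks of the set, all with pooled signal near the upper edge, show the mix of positions. Of these, 8 were in promoter windows, 5 between genes, 4 in introns, 2 in other exons and 1 in a 3′ untranslated region. Signal was higher in replicate 1 for 16 of the 20. The first, in an intron of asd-2, a gene for an RNA-binding regulator of splicing, had a pooled signal of 59.9, with 27.6 in replicate 1 and 33.8 in replicate 2. The next, at position -428 bp from the 5′ end of sli-1, the Cbl-type negative regulator of the EGF receptor, had 59.9, with 44.8 in replicate 1 and 24.0 in replicate 2. The peak nearest to the dynamin gene dyn-1 lay at position -2016 bp from its 5′ end, with 22.5 in replicate 1 and 28.4 in replicate 2. The 2 replicates ordered these peaks differently. Their pooled signals were nearly equal, because all sat at the upper edge of the rule. A peak higher in 1 replicate then tends to be lower in the other, so this order is partly built in.

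Among the other promoter peaks of the 20, that of egl-9, the hydroxylase that marks HIF-1 for breakdown, gave 47.9 in replicate 1 and 23.7 in replicate 2. Its summit lay inside the egl-9 gene, at -810 bp from an annotated 5′ end of that gene. The promoter peak of cysl-1, whose product binds EGL-9 and inhibits it, had 44.5 and 20.7. The MAP kinase phosphatase gene vhp-1 appeared 2 times, with an intron peak of 39.9 and 23.1 and a 3′ untranslated region peak of 45.5 and 28.3 in replicates 1 and 2. The remaining promoter peaks of the 20 were those of ech-1.2, an enoyl-CoA hydratase gene, the collagen pair col-159 and col-160, and the genes T24H7.9, Y44A6D.1, and T22D1.8 with T22D1.17. Peaks without a promoter window were nearest to the 5′ ends of exc-7 (an ELAV-type RNA-binding protein), pkg-2 (a cGMP-dependent kinase), cpna-5 (a copine), mrps-31, tric-1B.1, mct-6, C02F4.4 and M01H9.3.

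The reproducible weak peaks reached 1387 of 20234 protein-coding and microRNA genes through a promoter window. Of these, 353 also had a thresholded summit, and 1034 did not. Those 1034 are 6.35% of the 16291 genes without a thresholded promoter summit, and this share is the background for the gene groups below. The non-reproduced peaks reached 982 (6.03%) of the same genes, a count close to that of the reproducible ones. Of the 1034 genes, 1014 were protein-coding and 20 were microRNA genes. Together with the 3943 genes of the thresholded list, promoter peaks then covered 4977 genes (24.6%).

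Genes of the ASE left-right programme, the setting in which LSY-2 was named, gained nothing from the weak peaks. Of 24 such genes, 4 had a thresholded summit, and 0 of the other 20 had a reproducible weak one, where the background share is 6.35%. A count of 0 of 20 allows a share of up to 15% (3 counts of the total, counting error only). The lsy-12 peak lay at position -770 bp from the 5′ end of a gene that also had a thresholded summit. Its pooled signal was 46.2, with 21.4 in replicate 1 and 24.97 in replicate 2. Neuronal chemoreceptor genes were nearly untouched, at 4 of 1301 (0.307%, 95% Wilson interval 0.120 to 0.788).

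Among other neuronal genes the shares lay on both sides of the background. For neuropeptide genes 5 of 142 (3.52%) were newly reached, led by the insulin-like genes ins-37 and ins-10 and by nlp-33. The ins-37 peak had a signal of 29.6 in both replicates and was also within 200 bp of the small nuclear RNA gene F08G2.9. Receptors for neuropeptides and amines gave 5 of 117 (4.27%), led by ser-3 (octopamine), ser-4 (serotonin) and pdfr-1. Ligand-gated channels gave 7 of 100 (7%), with lgc-1, acr-12 (an acetylcholine receptor subunit) and lgc-31 first. Potassium channels gave 8 of 68 (11.8%, 6.08 to 21.5), with twk-25, kqt-3 and shk-1, the Shaker channel, first. Axon guidance and adhesion genes gave 7 of 38 (18.4%, 9.22 to 33.4). The strongest peak in that group was 179 bp downstream of a 5′ end of unc-53, a regulator of the cytoskeleton in migrating cells and axons. Its pooled signal was 58.4, with 26.0 in replicate 1 and 36.1 in replicate 2. The semaphorin gene smp-1 had 29.7 in replicate 1 and 23.2 in replicate 2, and mig-10, an adaptor in axon outgrowth, had 25.7 and 26.0. For axon guidance genes the non-reproduced peaks fell on 10 of the 38.

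Regulatory genes were reached near the background rate. Homeobox genes gave 8 of 92 (8.70%), led by ceh-43, zag-1 and the Hox gene egl-5. The egl-5 peak had similar signals in both replicates, 34.5 and 33.1, whereas that of zag-1 had 42.6 in replicate 1 and 13.7 in replicate 2. Nuclear hormone receptors gave 18 of 227 (7.93%), with nhr-3, nhr-286 and nhr-232 first. T-box, Sox, forkhead and ETS genes gave 5 of 45 (11.1%), with sox-2, the forkhead gene unc-130 and pha-4, the FoxA factor of pharynx identity. The pha-4 peak lay at -128 bp from a 5′ end, with 30.3 in replicate 1 and 15.0 in replicate 2. Chromatin modifier genes gave 6 of 54 (11.1%), led by spr-3, the histone H3 lysine 9 methyltransferase gene set-25 and the H3 lysine 27 demethylase gene jmjd-3.1.

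Cell cycle and DNA replication genes had the highest share among the groups with at least 5 newly reached genes, at 9 of 41 (22.0%, 95% Wilson interval 12 to 36.7), with the non-reproduced peaks on 2 of the 41. These were led by orc-2 of the origin recognition complex, fzy-1 (Cdc20) and cdk-2. Signals in replicates 1 and 2 were 40.99 and 23.6 for orc-2. They were 45.9 and 22.1 for fzy-1 and 27.6 and 21.2 for cdk-2. The fzy-1 peak stood at -179 bp and the cdk-2 peak at -161 bp from the 5′ end, whereas the orc-2 peak was 19 bp downstream. Heat shock and chaperone genes gave 6 of 28 (21.4%, 10.2 to 39.5), led by the J-domain genes dnj-8, dnj-25 and dnj-24, with non-reproduced peaks on 8 of the 28. In both groups more than 50% of the genes already had a thresholded summit, 48 of 89 and 47 of 75.

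Some large gene families had shares below 6.35%, not all of them clear of it by their intervals. Cuticle collagens gave 7 of 165 (4.24%, 95% Wilson interval 2.07 to 8.50), with col-159, col-160 and sqt-1 first. C-type lectins gave 7 of 237 (2.95%, 1.44 to 5.97), with clec-150, clec-196 and clec-221 first. F-box genes gave 2 of 304 (0.658%, 0.181 to 2.37), and major sperm protein genes 0 of 43, where shares up to 6.98% cannot be told from 0. Of genes without a thresholded summit, non-reproduced peaks fell on 8 neuropeptide, 8 neuropeptide or amine receptor and 8 collagen genes. They fell on 6 chromatin modifier, 5 F-box and 4 chemoreceptor genes. These counts equalled or exceeded the reproducible ones. Lower counts were those of ligand-gated channels (2), potassium channels (6), homeobox genes (3) and nuclear hormone receptors (13). T-box, Sox, forkhead and ETS genes (3) and C-type lectins (1) were lower too. The groups were chosen with earlier results of these data known, so the shares describe them and were not tested.

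**Figure D4:**
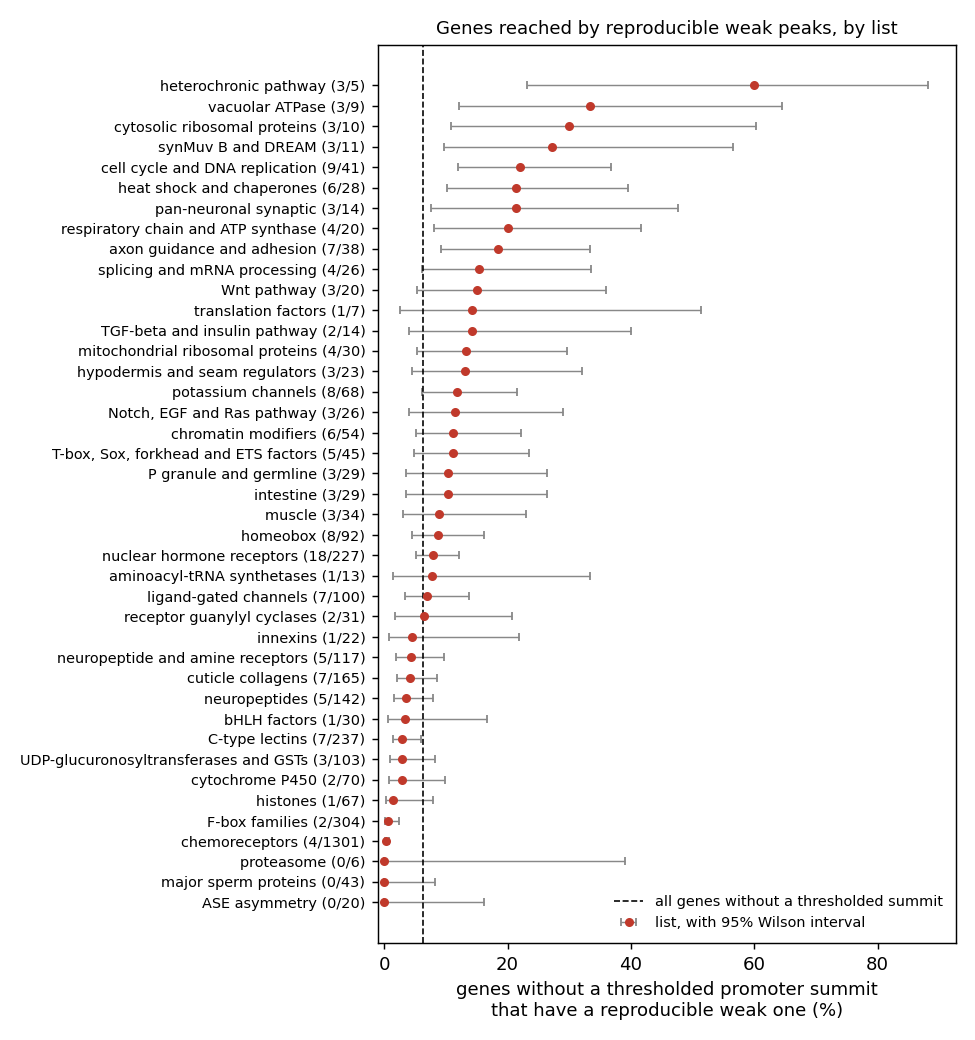
Share of genes without a thresholded promoter summit that had a reproducible weak one (horizontal axis, percent) for gene lists with at least 20 genes (vertical axis, newly reached over eligible genes in brackets); bars are 95% Wilson intervals and the dashed line is the share over all such genes, 6.35%. Cell cycle genes (22.0%) and axon guidance genes (18.4%) lie to the right of the line, and chemoreceptors (0.307%) and F-box genes (0.658%) lie to the left. Further right, with few eligible genes and wide intervals, are heterochronic (3 of 5, 60%) and vacuolar ATPase genes (3 of 9, 33.3%). Cytosolic ribosomal protein genes (3 of 10, 30%) and synMuv B and DREAM genes (3 of 11, 27.3%) are there too.

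The heterochronic pathway, which times larval stages, was already densely covered, with a thresholded summit at 19 of 24 genes, against 19.5% of all genes. Of the other 5, 3 had a reproducible weak peak. The daf-12 nuclear receptor gene had 36.8 in replicate 1 and 19.2 in replicate 2, the TRIM gene lin-41 had 26.9 and 19.3, and the Hunchback relative hbl-1 had 23.1 and 22.0. Weak peaks also lay beside thresholded ones at lin-42, lin-14, apl-1 and let-7. The lin-42 peak whose sequence is printed above was at -990 bp from a 5′ end, with 19.8 in replicate 1 and 42.1 in replicate 2.

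Weak peaks also lay at genes of small RNAs, some of which, such as tRNA genes, are transcribed by RNA polymerase III. Within 200 bp of a tRNA gene, a reproducible weak summit was found for 35 of 612 genes. None of these 35 also had a thresholded summit in that distance. The rule removed peaks that overlap a thresholded peak, so this absence is largely set by it. Within 500 bp, 46 tRNA genes had a reproducible weak summit, and 38 of those had no thresholded one. At 200 bp the 35 genes were 8.24% (95% Wilson interval 5.98 to 11.2) of the 425 tRNA genes without a thresholded summit, against 16 (3.76%) for non-reproduced peaks. Copies of a tRNA gene can be near-identical, and how the authors treated reads that map to several places is unknown here. For small nucleolar RNA genes the order was the reverse, 15 of 259 (5.79%) against 21 (8.11%). These counts were not tested. Small nuclear RNA genes gave 4 of 105 (3.81%), against 2 (1.90%) for non-reproduced peaks. Ribosomal RNA genes gave 0 of 20 for both sets, which allows a share of up to 15%.

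Of 244 microRNA genes without a thresholded summit within 200 bp, 13 (5.33%) had a reproducible weak one, against 10 (4.10%) for non-reproduced peaks. Within 500 bp the order was the reverse, 23 of 212 (10.8%) against 25 (11.8%). These counts were not tested. The strongest reproducible weak peak within 200 bp was at mir-236 on chromosome II, where replicate 1 had 40.1 and replicate 2 had 20.3. The peak at mir-61 had 22.7 and 33.3. The peak at mir-241, a let-7 family member of the heterochronic pathway, had 30.3 and 25.5. The lower ones included mir-34, with a pooled signal of 30.7 but 38.1 in replicate 1 and 29.5 in replicate 2.

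The DNA words of the thresholded list were present at the weak summits, at lower rates. GAGAGA, searched on both strands in the 100 bp at the summit, was in 572 of 4139 peaks (13.8%, 95% Wilson interval 12.8 to 14.9). In 100 bp starting 200 bp to one side, it was in 6.33% (exact McNemar test, two-sided, adjusted p = 8.51e-29, Benjamini-Hochberg over 12 words). The word was at the summit alone in 540 peaks and in the flank alone in 230. AGACGCAG was in 112 summits (2.71%) and 0.580% of flanks (adjusted p = 1.74e-14, exact McNemar test). In all 100-bp tiles of the genome the shares were 5.13% for GAGAGA and 0.517% for AGACGCAG. The sequences of men-1 and nhr-66 printed above place AGACGCAG close to the middle of the window, and that of lin-42 places it to one side. Either word was in 633 summits (15.3%) and both in 51, and 3506 summits held neither.

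Both words were less frequent than at thresholded summits, where GAGAGA was in 25.7% and AGACGCAG in 9.30% (adjusted p = 1.16e-47 and 8.68e-43, Fisher's exact test over 12 comparisons). At the weakest 1000 thresholded summits the shares were 21.8% and 6.30%. Against non-reproduced peaks neither difference passed the test. The shares there were 12.1% for GAGAGA (adjusted p = 0.0518, Fisher's exact test) and 2.20% for AGACGCAG (adjusted p = 0.284). Within the 3 rank bins the reproducible peaks had less GAGAGA than the non-reproduced ones in each, with differences of -0.984 to -1.64 percentage points, and none of these differences passed the test. Within the set AGACGCAG was more frequent in promoter summits than in the other summits, at 4.07% against 1.95% (adjusted p = 0.000345, Fisher's exact test). For GAGAGA the same split, 15.4% against 12.95%, did not pass Fisher's exact test (adjusted p = 0.0734).

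The other words of the list also differed between summit and flank. AGAGAG, which overlaps GAGAGA by shifting 1 base, was in 12.5% of summits and 4.45% of flanks. AGAGAC was in 8.31% and 3.72%, CGTCTC in 6.02% and 2.88%, and GCAAACAC in 1.55% and 0.652%. GACGCA, a part of AGACGCAG, was in 4.78% of summits. Its other parts searched were ACGCAG in 4.69% of summits, with AGACGC in 4.30%. The A-rich words were lower at the summit, with AAAATT in 32.1% of summits and 40.95% of flanks. All 12 words passed the exact McNemar test, with the largest adjusted p, 4.77e-05, for GCAAACAC.

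Base composition moved with these words. Weak summits had a mean GC content of 37.8% ± 8.16 (SD over 4139 peaks) and their flanks 35.5%, a difference of 2.35 percentage points. At thresholded summits the GC content was 43.6% and the difference 8.58 points. Repeat masking covered at least 50% of the summit window at 868 weak peaks (21.0%), against 11.7% of thresholded and 26.6% of non-reproduced peaks. Of the 572 summits with GAGAGA, 63 (11.0%) were masked to that extent. With only summit and flank windows masked below 50% kept, the excess of GAGAGA over the flank was 8.32 percentage points (p = 1.11e-19, exact McNemar test). That of AGACGCAG was 2.59 points (p = 5.45e-12, exact McNemar test). Over all weak peaks these values were 7.49 and 2.13 points. The part of base composition, and of less masked repeats, in the word shares was not tested.

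**Figure D5:**
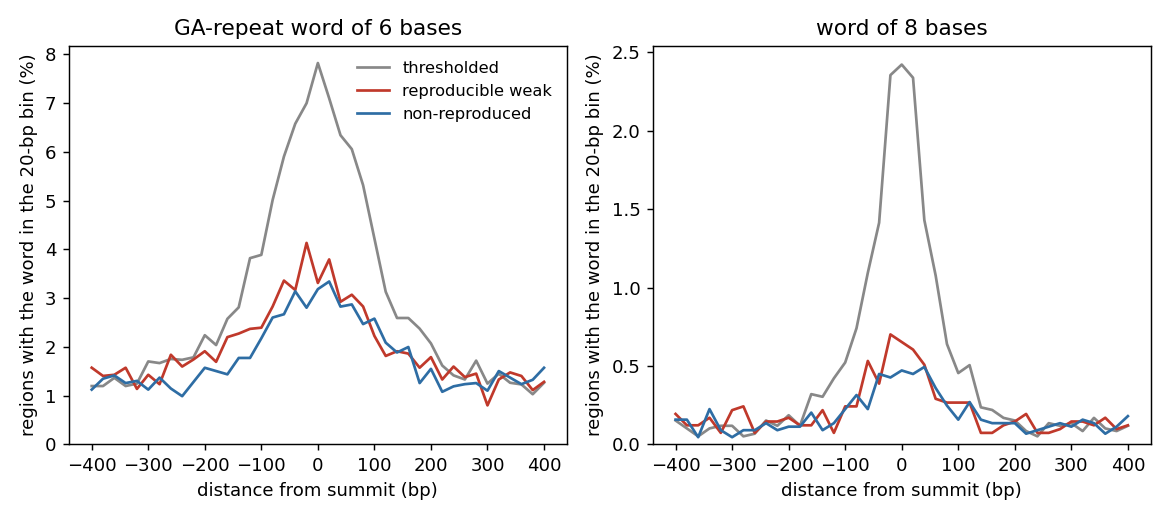
Share of regions with a word in a 20-bp bin (vertical axis, percent) by distance from the summit (horizontal axis, bp) for the GA-repeat word of 6 bases (left) and the word of 8 bases (right); lines are thresholded, reproducible weak and non-reproduced peaks. At the summit bin the GA-repeat word reached 7.82% of thresholded, 3.31% of reproducible weak and 3.18% of non-reproduced regions, and the word of 8 bases 2.42%, 0.652% and 0.471%.

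Along the genome the weak peaks were densest on chromosome III, at 61.2 per Mb, and least dense on chromosome V, at 27.2 per Mb. The other sets shared these extremes, with 87.6 and 38.8 per Mb for thresholded peaks and 59.7 and 31.4 for non-reproduced peaks. The X chromosome held 16.96% of them and 14.8% of thresholded peaks (adjusted p = 0.00505, Fisher's exact test over 4 comparisons added after the data were seen). Against non-reproduced peaks, with 16.6%, the difference did not pass Fisher's exact test (adjusted p = 0.644). On the autosomes 66.9% of weak summits lay in the middle 50% of the chromosome's length, against 63.1% of thresholded (adjusted p = 0.00052, Fisher's exact test) and 62.0% of non-reproduced summits (adjusted p = 5.48e-05).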

How the data were processed

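ChIP-seq peak lists of 2 biological replicates and of the pooled reads were used, all in 1 group, with coordinates of build ce11 and, as an alternative, ce10. The authors deposited for each peak a signal value, of unstated scale and normalization. For each peak the deposited files hold a −log10 q-value as well. The lists were made from the replicates' alignments and a control alignment, per the labels' file notes, and the sources used here name neither aligner, peak caller nor reproducibility threshold. No read counts were used, so depth is unknown and no interval covers sequencing error. The pooled list was made from the same reads as the replicate lists, so the lists are not independent.

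Peaks were ranked by signal within each list. Summits were assigned to genes with Ensembl release 115 (WBcel235). Each summit got 1 class, the first that held it of promoter, 5′ untranslated region, 3′ untranslated region, coding exon, other exon, intron, intergenic. Shares were compared with Fisher's exact test, words with an exact McNemar test, and intervals are 95% Wilson intervals. Tests were checked on simulated data. Scripts ran in Python 3.11.15 with SciPy 1.17.1, numpy 2.4.6, pandas 2.3.3 and matplotlib 3.10.9.

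The set, the 42 gene lists and the words were chosen with earlier results of these data known, and some list entries were corrected to current gene symbols after the files were read. Named genes are those of the 20 strongest peaks, each ASE asymmetry gene with a peak and, for lists with at least 5 newly reached genes, the 3 with the strongest peak. Sequences are shown for the strongest promoter peaks with a word and for the ASE gene, leaving out chromosome I. Genes of the heterochronic list, the microRNA genes and those with many summits were named after their values were seen. Alternatives changed the replicate rank limit (10000, 20000), the overlap rule, the replicates required, the promoter window (500, 2000 bp), the comparison set, the flank (400 bp), the tRNA distance (500 bp), merging and the build. Alternatives chosen after seeing the data left out replicate peaks on thresholded peaks and masked windows.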

Additional observations from a re-analysis of the deposited data

How the results depend on the processing

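Of 71 alternative values, 65 kept their direction and their side of the test's threshold or stayed within 1.5 times the main count. A replicate rank limit of 10000 left 1460 peaks, 400 newly reached genes and 18 tRNA genes, against 4139, 1034 and 35. Replicate summits within 100 bp of the pooled summit left 2630 peaks, 13 of the strongest 20 among them. With 1 replicate left out, the peaks numbered 5749 to 6424. The ce10 lists gave 4235. With ranks no lower than 8000 the promoter share exceeded that of non-reproduced peaks by 1.40 percentage points and did not pass Fisher's exact test (p = 0.657), whereas the other alternatives gave 3.996 to 6.35 points. These causes were not tested. Against thresholded peaks the promoter difference ran from -23.4 to -6.16 points, the smallest being against the weakest 1000. The excess of GAGAGA over the flank ran from 6.70 to 9.93 points and that of AGACGCAG from 1.98 to 3.08 points. No paired analysis was possible because there is 1 group. Library depth is unknown, 2 replicates set no error for a single peak, and summits in neighbouring peaks are not independent.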

Other observations

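Reproducible weak summits lay inside a protein-coding gene in 2336 cases (56.4%), spread over 1561 genes, of which 44 held 5 or more. The share of the genome, or of the other sets, inside such genes was not computed, so 56.4% has no background here. These 44 were long genes, with a median length of 18.7 kb against 2.03 kb for all protein-coding genes, so the counts below are also counts over more DNA. The heterochronic gene lin-14, which specifies early larval fates, held the most, with 10 weak and 7 thresholded summits in 20.3 kb of the X chromosome. The gene kin-1, for the catalytic subunit of protein kinase A, held 9 weak and 6 thresholded summits in 38.5 kb, and ncl-1, a TRIM gene that limits nucleolar size, held 9 and 10 in 18.4 kb. The CREB3-type factor gene let-607 held 9 weak summits with 1 thresholded summit in 11.5 kb. For gei-17, a SUMO ligase gene, the counts were 6 and 0, and for skn-1, the Nrf-type stress factor gene, 6 and 2. Non-reproduced summits numbered 2 in lin-14, 6 in kin-1, 1 in ncl-1, 2 in let-607, 1 in gei-17 and 0 in skn-1.

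Words outside the list of 12, chosen after the data were seen, were counted with no test. CTTATC, the reverse complement of the GATA-type word GATAAG, was in 7.73% of reproducible weak summits, 3.79% of their flanks and 3.66% of genome tiles. Its share was 6.44% at all thresholded summits, 9.50% at the weakest 1000 of them and 6.48% at non-reproduced summits. CACACA was in 9.35% of weak summits and 4.61% of flanks. Its share was 13.7% at all thresholded summits, 11.2% at the weakest 1000 of them and 7.64% at non-reproduced summits.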
